A study of Homo sapiens with 16 samples.

Results

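The genes described here are the 6 classical members of the platelet-derived growth factor (PDGF) system: the 4 ligands PDGFA, PDGFB, PDGFC and PDGFD and the 2 receptors PDGFRA and PDGFRB. They were taken by name, and all 6 were among the 20121, 27650 and 21093 genes of the bulk RNA tables called set 1, set 2 and the TNFα set here. All 6 also had UMIs in both single-cell libraries, whose matrices list 36601 genes. Kidney organoids were grown from UM77-2, a human embryonic stem cell line, and the study asked how their expression changed with time in culture and with TNFα, an inflammatory cytokine. Set 1 held 1 library each of day 21, 25 and 29 (D21, D25, D29), and set 2 held 2 libraries, Org1 and Org2, of each of these days. The TNFα set was day 25 organoids given 5 ng/ml TNFα or vehicle (VC, DPBS) for 24 h or 48 h, with 1 library of each. Bulk libraries were made from isolated spheroids, whereas the single-cell libraries (10x 3′ chemistry) came from whole wells of day 24 organoids, 1 with VC and 1 with TNFα for 24 h. All 15 libraries analysed came from the 1 cell line, and the day 25 single-cell library was not analysed here.

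PDGF ligands are secreted dimers that bind and dimerize receptor tyrosine kinases on other cells. The A and C chains act mainly through PDGFRA, whereas the B and D chains act mainly through PDGFRB, and the C and D chains must be cut by proteases before they bind. In the developing kidney the receptors mark stromal cells, pericytes and mesangial cells. Epithelial and endothelial cells are known sources of ligand, and endothelial PDGFB draws mural cells to vessels.

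On GRCh38 (GENCODE 44), PDGFA (ENSG00000197461) lies on the minus strand at chr7:497258-520296 and PDGFB (ENSG00000100311) on the minus strand at chr22:39223359-39244982. PDGFC (ENSG00000145431) lies on the minus strand at chr4:156760454-156971799 and PDGFD (ENSG00000170962) on the minus strand at chr11:103907189-104164379. PDGFRA (ENSG00000134853) lies on the plus strand at chr4:54229280-54298245, and PDGFRB (ENSG00000113721) on the minus strand at chr5:150113839-150155872.

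The promoter windows of the receptors are shown because both receptors were lower with TNFα and, of the 2, PDGFRA was called higher with age. Each window runs from 250 bases before to 50 bases after an annotated start (RefSeq, GRCh38.p14), 5′ to 3′ on the strand of the gene. Windows were at hand for 4 of the 6 members, not for PDGFB or PDGFC. Capitals mark the GC box GGGCGG (or its reverse complement) and CCAAT, searched on both strands.
PDGFRA, chr4:54229043-54229342, plus strand: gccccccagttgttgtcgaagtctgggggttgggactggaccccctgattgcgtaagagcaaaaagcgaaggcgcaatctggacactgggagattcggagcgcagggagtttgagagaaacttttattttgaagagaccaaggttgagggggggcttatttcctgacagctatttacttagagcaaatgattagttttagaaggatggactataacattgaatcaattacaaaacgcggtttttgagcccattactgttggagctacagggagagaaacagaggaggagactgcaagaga
PDGFRA, chr4:54233710-54234009, plus strand: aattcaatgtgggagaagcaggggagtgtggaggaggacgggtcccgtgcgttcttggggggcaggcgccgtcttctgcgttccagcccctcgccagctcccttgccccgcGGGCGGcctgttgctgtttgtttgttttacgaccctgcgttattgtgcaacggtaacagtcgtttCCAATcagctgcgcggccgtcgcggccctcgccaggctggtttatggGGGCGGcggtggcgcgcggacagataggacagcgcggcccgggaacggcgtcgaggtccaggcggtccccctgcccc
PDGFRB, chr5:150155796-150156095, minus strand: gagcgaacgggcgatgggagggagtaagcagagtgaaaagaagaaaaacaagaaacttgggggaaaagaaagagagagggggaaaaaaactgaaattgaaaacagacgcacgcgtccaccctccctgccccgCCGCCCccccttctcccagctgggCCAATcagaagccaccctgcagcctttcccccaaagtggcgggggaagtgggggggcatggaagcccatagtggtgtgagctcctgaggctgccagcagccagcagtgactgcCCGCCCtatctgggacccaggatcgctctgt
The first PDGFRA window held no GC box and no CCAAT and was 47.0% G or C. The second held 2 GC boxes, starting at positions -139 and -27, and a CCAAT at -74, and was 66.7% G or C. The PDGFRB window held 2 GC boxes on the opposite strand, at -118 and 20, and a CCAAT at -94, and was 59.3% G or C. None of these matches overlapped. TATAAA and a 10-letter NF-κB consensus were also searched, and none of the 3 windows held either. Over all 35116 windows of 300 bases, 45.0% held a GC box, 34.6% a CCAAT, 11.5% a TATAAA and 7.73% the NF-κB consensus, so the matches are common features of promoters and no more than a description.

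The labels were checked on genes that TNFα is known to induce. CXCL10, CCL2, ICAM1 and NFKBIA were 3.2, 4.07, 4.25 and 2.47 higher in TNFα than in VC spheroids on the log2 scale, each called by limma. Bulk libraries held 19073609 to 59246286 reads. The tables were normalized separately, so levels are not compared between them. Nothing says that Org1 and Org2 came from separate cultures, and p-values in set 2 measure only the spread between these samples. In bulk RNA, fewer cells of a type and less RNA per cell cannot be told apart.

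All 4 ligands were detected in every spheroid library, but at unequal levels. In counts per 1000000 reads (CPM) divided by exon length in kb, PDGFA ranged from 17.8 to 25.7 over the 6 libraries of set 2 and PDGFC from 11.2 to 14.5. PDGFB ranged from 2.61 to 4.51 and PDGFD from 2.46 to 4.48 on the same scale. The 2 abundant ligands were thus the A and C chains, which are the chains that act mainly through PDGFRA, and their ranges did not overlap. PDGFB and PDGFD overlapped and held the lowest levels. Of the receptors, PDGFRB ranged from 26.3 to 29.1 and PDGFRA from 8.93 to 29.1 CPM per kb, so that PDGFRA was below every PDGFRB library at D21 and overlapped it at D29.

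The question of the day comparison was which of these genes changed as the organoids aged. PDGFRA rose strongly and PDGFA fell slightly from D21 to D29, while PDGFRB stayed within a narrow range. At D29 against D21 limma called 2 of the 6 members at an adjusted p under 0.05 (Benjamini-Hochberg over all genes), where 18.4% of all 27650 genes were called (10.0% higher and 8.33% lower).

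PDGFRA, the receptor for the A and C chains, was the member that changed most. In set 2 its level on the log2(CPM + 1) scale was 6.65 and 6.43 at D21, 7.64 and 7.61 at D25, and 7.98 and 8.12 at D29. The days did not overlap, and the largest step lay between D21 and D25. From D21 to D29 PDGFRA was 1.51 ± 0.09 higher (log2 difference ± SE, n = 2 libraries per day, limma adjusted p = 9.41e-05), a 2.85-fold change on the CPM + 1 scale. From D21 to D25 it was 1.08 ± 0.09 higher (adjusted p = 0.00128), and it was the 1 member called there, where 5.37% of all genes were called (3.39% higher and 1.99% lower). From D25 to D29 limma called no member (2.08% of all genes were called, 1.25% higher and 0.825% lower). PDGFRA was 0.43 ± 0.09 higher there, with a limma adjusted p of 0.0592. With 1 library left out this difference ran from 0.36 to 0.50. At an unadjusted limma p under 0.05 there were 4 members. The share of all genes under it was not computed, so nothing about the members is read from that count. EdgeR and DESeq2 each called 2 members, beside 1336 and 1278 of all 27650 genes. The set 1 libraries, with 1 library per day and no test, gave PDGFRA at 7.47, 8.33 and 8.34 on D21, D25 and D29.

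PDGFRB, the receptor for the B and D chains, lay at 7.56 and 7.56 at D21, 7.71 and 7.64 at D25, and 7.59 and 7.58 at D29 in set 2. All 6 libraries lay within 7.56 to 7.71, and the D29 to D21 difference was 0.02 ± 0.06 (limma adjusted p = 0.878). This difference has no stable direction, since centring each library on its median gave -0.08. In set 1 PDGFRB was 7.27 at D21, 7.77 at D25 and 7.67 at D29, so the lone D21 library was the lowest there.

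Among the ligands, PDGFA fell. Its set 2 levels were 6.83 and 6.90 at D21, 6.65 and 6.70 at D25, and 6.58 and 6.37 at D29, without overlap between days. PDGFA fell by 0.39 ± 0.08 from D21 to D29 (limma adjusted p = 0.0153). With 1 library left out the D29 to D21 difference ran from -0.49 to -0.28. Leaving out a D21 or D29 library leaves 1 at that day, so these fits cannot say whether the call rests on a single library. Set 1 did not show the fall, with PDGFA at 6.34, 6.55 and 6.35.

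The other 3 ligands did not pass the test in any day comparison. PDGFB lay at 3.77 and 3.51 at D21, 3.94 and 3.97 at D25, and 3.96 and 4.25 at D29, a D29 to D21 difference of 0.46 ± 0.14 (limma adjusted p = 0.0539). PDGFC lay at 6.10 and 6.12, then 6.18 and 6.18, then 6.46 and 6.28, a difference of 0.26 ± 0.08 (adjusted p = 0.0505). Both sit at the threshold, and both were called by edgeR, DESeq2 and limma on genes with a mean log2 value of at least 1. These 3 analyses called 4 members, beside 5552 (edgeR) and 4475 (DESeq2) of all 27650 genes and 5166 of the 18572 genes kept (limma). With 1 library left out the D29 to D21 difference ran from 0.32 to 0.61 for PDGFB and from 0.17 to 0.36 for PDGFC. Fits without a D21 or D29 library leave 1 at that day, so no call is read from them. PDGFD was lowest at D25, with 3.98 and 4.09, then 3.87 and 3.53, then 4.26 and 4.33. Its D29 to D25 difference was 0.60 ± 0.13 (limma adjusted p = 0.0696). In the same comparison edgeR called PDGFD (adjusted p = 0.0201) and PDGFRA (0.0180), and over the alternatives the adjusted p ranged from 0.00630 to 0.262 for PDGFD and from 0.00158 to 0.263 for PDGFRA. Set 1 gave PDGFB at 3.32, 3.75 and 3.69, PDGFC at 6.27, 6.19 and 6.42, and PDGFD at 4.31, 4.18 and 4.63.

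**Figure D1:**
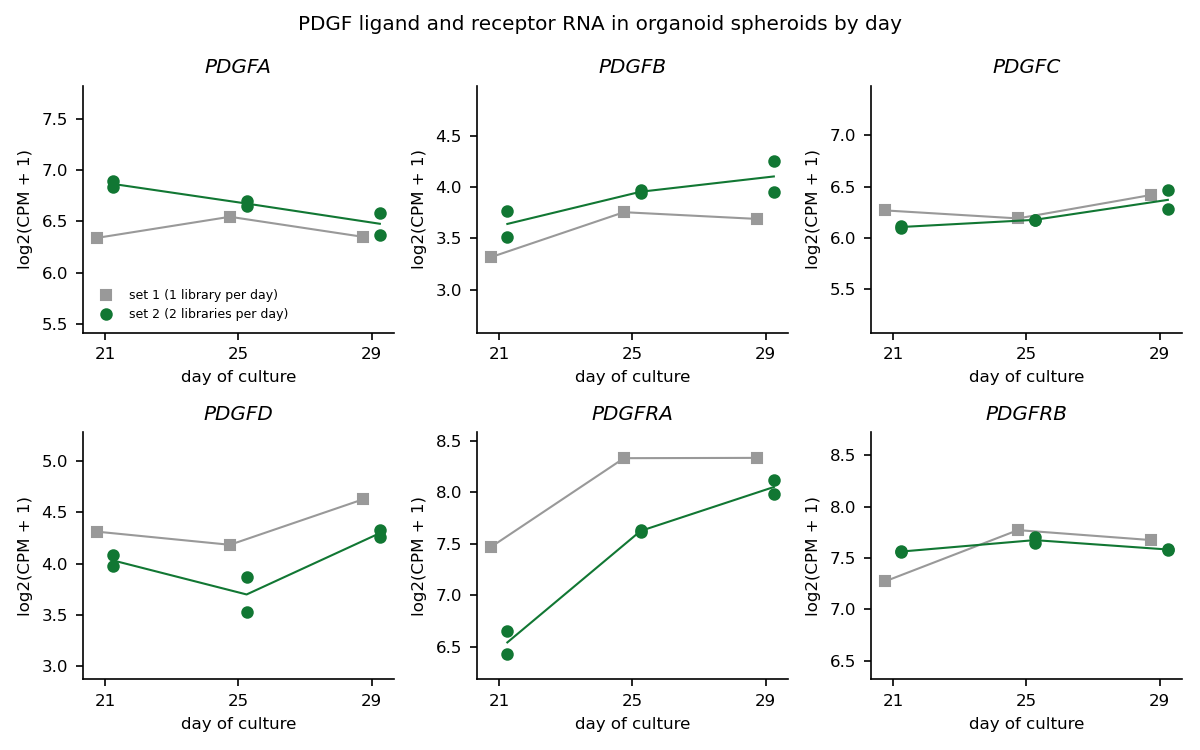
Level of each PDGF gene, log2(CPM + 1) on the y axis, against day of culture on the x axis, with 1 point per library, set 1 in grey squares and set 2 in green circles, and lines through the means of each day. Every panel spans the same log2 range, the 2 sets were normalized separately, and the steepest line is that of PDGFRA in set 2, from 6.65 and 6.43 at D21 to 7.98 and 8.12 at D29.

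Markers of cell types moved over the same days. In set 2 the summed CPM of 12 stromal markers (such as COL1A1, DCN and LUM) was 5236 and 4572 at D21 and 15116 and 18825 at D29, and 10 of the 12 were called higher. The 10 mural markers tested summed to 682 and 728 at D21 and to 1037 and 1190 at D29 (9 called higher). The podocyte list summed to 11881 and 12458, then to 8404 and 4012 (6 of 10 called lower), and the proximal tubule list to 1421 and 1185, then to 767 and 643 (6 of 11 called lower). Neuronal markers, of cells outside the kidney lineage, summed to 564 and 598 at D21 and to 1014 and 1500 at D29 (10 of 11 called higher), and muscle markers to 158 and 199, then to 362 and 293 (7 of 13 called higher). From D21 to D29 in set 2, PDGFRA thus rose alongside the stromal, mural, neuronal and muscle markers, and PDGFRB did not pass the test. At D25 the muscle sums (159 and 163) lay within their D21 range, while the stromal, mural and neuronal sums were already above theirs. In set 1 the stromal, mural and muscle sums were higher at D29 than at D21, but the neuronal sum was lower (1311 against 1536). The part of these markers in the changes of PDGFRA and PDGFA was not tested.

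Of 55 other genes of PDGF signalling, 14 were called higher and 7 lower at D29 against D21, against 10.0% and 8.33% of all genes, and their median log2 change was 0.07. With each library centred on its median the counts became 13 and 12, and the calls over all genes went from 2778 higher and 2303 lower to 2408 and 4667. Among the 6 proteases that act on PDGF ligands, 2 rose and 1 fell. PLAT, the tissue plasminogen activator known to cut PDGFC, was 1.17 ± 0.07 higher (limma adjusted p = 8.39e-05) and ST14, matriptase, 0.46 higher, while the proprotein convertase PCSK5 fell by 0.64. Of 6 proteins that bind the ligands or modulate the receptors, 4 rose and 1 fell. CAV1, a caveolar scaffold, was 0.82 higher, the endocytic co-receptor LRP1 0.81 higher and PDGFRL, a receptor-like protein, 0.75 higher, and NRP1, a co-receptor, fell by 0.45.

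Further down the pathway, calls went in both directions in each of the next 3 lists. Of 20 adaptors and kinases, 3 rose (STAT3 by 0.94, PIK3R1 by 0.71, GAB1 by 0.28) and 2 fell (FYN by 0.71, PIK3CB by 0.44). Of 13 negative regulators, which end or dampen the signal, 4 rose, the largest being DUSP4 (0.73), SPRY1 (0.59) and SPRED1 (0.46), and DUSP6 and PTPN1 fell by 0.44 and 0.36. The 10 early response genes held 1 rise, IER3 (0.74), and 1 fall, FOS, which fell by 2.61 ± 0.59 (adjusted p = 0.0196). Of 7 genes of the other class III receptor kinases and their ligands, IL34 and CSF1, both ligands of the CSF1 receptor, were 0.84 and 0.52 higher. From D21 to D25 4 of the 55 were called higher and 1 lower, against 3.39% and 1.99% of all genes. From D25 to D29 limma called none of the 55, where it called 2.08% of all genes. There 18 of the 55 had an unadjusted limma p under 0.05. The share of all genes under it was not computed, so nothing about these genes is read from that count. EdgeR called 2 of the 55 and DESeq2 3, beside 1336 and 1278 of all 27650 genes. The D29 to D21 count was lower without either D21 library and without D29 replicate 2, and so was the count over all genes. These fits leave 1 library at a day, so the drop is not read as a trait of the pathway genes.

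With TNFα, 1 ligand rose and both receptors fell in spheroids. Limma called 3 of the 6 members across both times, where 19.3% of the 21093 genes were called (8.42% higher and 10.8% lower). There was 1 library per treatment and time, so the times stood in for replicates and 1 residual degree of freedom remained before the variances were moderated.

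PDGFC was the ligand that rose. It lay at 6.26 in VC and 6.64 in TNFα at 24 h, and at 6.18 and 6.67 at 48 h, on the log2(CPM + 1) scale. Both TNFα libraries were above both VC libraries, by 0.38 at 24 h and 0.48 at 48 h. Over both times PDGFC was 0.43 ± 0.07 higher (log2 ± SE, limma adjusted p = 0.000101, 1.35-fold), and it was called under every alternative run, with a highest adjusted p of 0.0127 without the trend on the mean.

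Both receptors were lower at both times. PDGFRA lay at 6.76 in VC and 6.53 in TNFα at 24 h, and at 7.07 and 6.75 at 48 h, and it fell by 0.27 ± 0.06 (limma adjusted p = 0.00476). PDGFRB lay at 7.31 and 7.06 at 24 h, and at 7.47 and 7.28 at 48 h, and it fell by 0.22 ± 0.06 (adjusted p = 0.0150). For both receptors the TNFα library of 48 h came close to the VC library of 24 h, without overlap, and both were higher at 48 h than at 24 h with either treatment. Neither receptor was called by DESeq2 (adjusted p = 0.0638 for PDGFRA and 0.155 for PDGFRB) or without the trend (0.0699 and 0.122). Over all alternatives the adjusted p ranged from 0.00117 to 0.0699 for PDGFRA and from 0.0103 to 0.155 for PDGFRB.

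The other 3 ligands did not pass the test. PDGFB lay at 3.89 and 4.03 at 24 h and at 4.01 and 4.15 at 48 h (VC first), a difference of 0.14 ± 0.09 (limma adjusted p = 0.360). PDGFD lay at 4.46 and 4.72, then 4.67 and 4.71, a difference of 0.15 ± 0.09 (adjusted p = 0.285). PDGFA lay at 6.30 and 6.15, then 6.45 and 6.50, so it was lower with TNFα at 24 h and higher at 48 h.

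**Figure D2:**
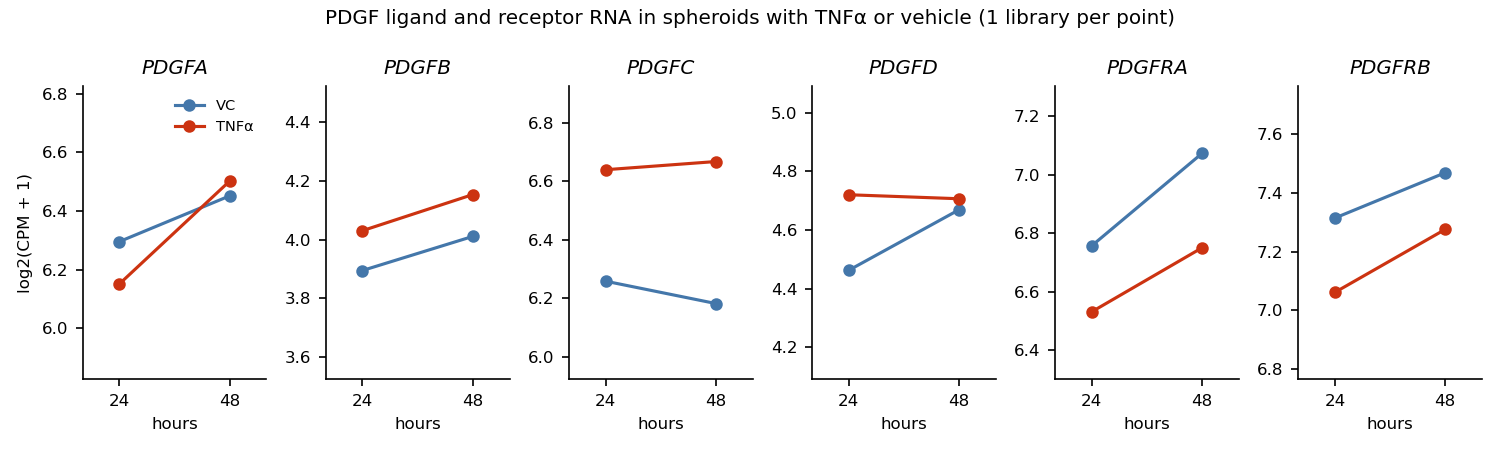
Level of each PDGF gene in day 25 spheroids, log2(CPM + 1) on the y axis, against hours of treatment, with VC in blue, TNFα in red and 1 library per point. Every panel spans the same log2 range, PDGFC is higher with TNFα at both times (6.64 against 6.26 and 6.67 against 6.18), and both receptors are lower.

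Podocyte and proximal tubule markers fell in the same TNFα libraries. The summed CPM of the proximal tubule list was 1300 and 1273 in VC at 24 h and 48 h and 652 and 719 in TNFα (11 of 11 called lower), and the podocyte list went from 7439 and 6935 to 4511 and 3360 (10 of 10 called lower). Distal tubule or loop markers summed to 706 and 692 in VC and to 620 and 701 in TNFα (1 of 10 called higher and 2 lower), and nephron progenitor or early nephron markers to 1036 and 1151 in VC and 1146 and 1425 in TNFα (2 of 10 called higher and 1 lower). Stromal markers summed to 7195 and 8831 in VC and to 9138 and 9499 in TNFα (6 of 12 called higher and 2 lower), and mural markers to 646 and 655 in VC and 898 and 818 in TNFα (8 of 10 called higher). The stromal and mural sums were thus higher in TNFα at both times, where both receptors were lower. The part of these markers in the changes of PDGFC and the receptors was not tested.

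Of the 55 pathway genes, 15 were called higher and 3 lower with TNFα, against 8.42% and 10.8% of all genes, with a median log2 change of 0.07. Of the proteases 3 of 6 rose, PCSK6 by 0.90, PLAU, the urokinase that can cut PDGFD, by 0.54, and ST14 by 0.25. CAV1 and the proteoglycan CSPG4, also known as NG2, rose by 1.30 and 0.27, and STAT3 and the adaptor SHC1 by 0.60 and 0.32. Among the 13 negative regulators 6 rose, led by DUSP4 (0.48), SPRED1 (0.47) and DUSP6 (0.46), and the ubiquitin ligase CBLB fell by 0.47. The early response genes split, with IER3 (1.16) and JUNB (0.91) higher, and FOS and EGR1 lower, by 0.86 and 0.38. IL34 and CSF1 rose by 3.36 and 1.79, 2 of the 4 genes of the wider family that the table lists.

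The single-cell libraries answered which cells carried these transcripts, and they differed in depth. The VC library held 11906 cells with over 500 genes and a median of 6358.5 UMIs per cell, the TNFα library 23160 cells with a median of 2599, and 74 barcodes were shared. Clustered together after alignment, without the 6 genes among those used, the cells formed 14 clusters, 11 of which were named from marker lists. Without alignment 15059 of the 23160 TNFα cells fell in 1 unnamed cluster, with a median of 2175 UMIs, beside 697 VC cells. Most named clusters then held cells of both libraries. The stromal-like one had 2628 VC and 2284 TNFα cells, the latter with a median of 4245 UMIs. Values below are UMIs of a gene per 1000000 UMIs of a cluster (CPM) with exact 95% Poisson intervals for counting error only. With 1 library per condition there was no test. The aligned cluster named proximal tubule-like (9 of 12 markers raised) also raised 5 of 12 distal tubule markers and is called the tubule cluster.

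PDGFA RNA was concentrated in the tubule cluster. In VC it reached 109 CPM (104 to 114) there, against 33.6 in podocyte-like and 15.4 in stromal-like cells. These 1222 cells held 49.7% of all PDGFA UMIs and 18.2% of all UMIs. Cluster 13, with no name (97.3 CPM, 221 cells), came next, and its interval, 82.0 to 115, overlapped that of the tubule cluster. Muscle-like clusters 9 and 6 had 75.6 and 57.1 CPM, and cluster 11 had 63.2. Neuronal-like cells were lowest, at 7.72 and 6.14 CPM. At a resolution of 0.5 the tubule cluster split into parts of 1148 and 74 VC cells, and the smaller part, which raised 10 of 12 proximal tubule markers and 2 of 12 distal ones, held 4.82% of the PDGFA UMIs. The larger part raised 7 of 12 proximal tubule and 5 of 12 distal tubule or loop markers, with MAL, WFDC2 and POU3F3 of the distal list among its leading genes, so PDGFA is not placed in 1 tubule segment here.

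PDGFB, known from endothelium, was the rarest ligand, with 370 UMIs in VC and 263 in TNFα over all cells. Its highest level was in cluster 11, with no name, at 64.6 CPM (47.0 to 86.8, from 44 UMIs) in VC and 14 (31 UMIs) in TNFα. Genes leading this cluster included MMP7, SOX17 and EDN1. Of the 10 listed endothelial markers, only PECAM1, CDH5 and VWF are given by UMIs here. Over all VC cells, 25 of 30 PECAM1 UMIs and 42 of 59 CDH5 UMIs lay in cluster 11, and no VWF UMI did. Cluster 11 raised 2 of 10 endothelial markers, which summed to 696 CPM in VC, and 3 of 11 mural markers, which summed to 2548 CPM. The tubule cluster also raised 2 of 10 endothelial markers, so that number does not single out cluster 11. Cluster 11 was shallow in VC, with a median of 958.5 UMIs and 294 of 382 cells under 1500 UMIs. No mural marker was among its 10 leading genes, so it was given no name. The part of depth in the PDGFB level was not tested. By number, most PDGFB UMIs lay elsewhere, with 148 (40.0%) in the tubule cluster at 8.07 CPM and 50 in gonadal or coelomic epithelium-like cells at 7.28 CPM. Podocyte-like cells had 0.82 CPM.

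PDGFC was highest in muscle-like cluster 6, at 124 CPM (116 to 132) in VC, and in proliferating-like cells, at 70.8 CPM. Tubule, stromal-like and podocyte-like cells were close to each other at 31.4 (28.9 to 34.1), 30.8 (28.0 to 33.8) and 24.0 (20.9 to 27.5), and the first 2 intervals overlapped. Neuronal-like cells again were lowest, at 8.55 and 7.49. PDGFD was low in all clusters, with 672 UMIs in VC, and reached 16.6 CPM (13.6 to 20.2) in cluster 7, which raised 9 of 10 podocyte markers but was led by TESC, ITIH5 and CCN2. Muscle-like cluster 9 had 14.6 CPM (8.33 to 23.7), which overlapped. Glia-like cells had 11 CPM of PDGFD, the tubule cluster 8.61 and stromal-like cells 5.94. By value alone, the 4 ligands were highest in 4 different clusters of VC, with overlapping intervals between the first 2 clusters of PDGFA and of PDGFD. Without alignment the highest PDGFC level in VC, 129 CPM, was in a cluster named nephron progenitor or early nephron-like.

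Both receptors were highest in stromal-like cells. PDGFRA reached 318 CPM (309 to 328) there in VC, and these 2655 cells held 58.9% of its UMIs and 14.2% of all UMIs. It was next highest in proliferating-like (130 CPM) and coelomic epithelium-like cells (127 CPM), whose intervals overlapped. Cluster 11 followed at 72.0 CPM and neural progenitor-like cells at 48.6 CPM. Per 1000 UMIs of the stromal markers, proliferating-like VC cells had 37.8 PDGFRA UMIs and stromal-like ones 39.7. The proliferating-like cluster raised 1 of 12 stromal markers, and 7 of 12 without alignment, so it is not read as a class apart from stromal cells. PDGFRB reached 121 CPM (116 to 127) in stromal-like cells, with 47.2% of its UMIs. Cluster 7 had 63.6 CPM of PDGFRB and proliferating-like cells 56, with overlapping intervals, and podocyte-like cells had 44.9. Coelomic epithelium-like cells had 27.5 CPM of PDGFRB and cluster 7 had 11.6 CPM of PDGFRA, so these clusters held the 2 receptors in opposite order. The tubule cluster, the main source of PDGFA, was low in both, with 11.2 CPM of PDGFRA and 6.48 of PDGFRB.

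**Figure D3:**
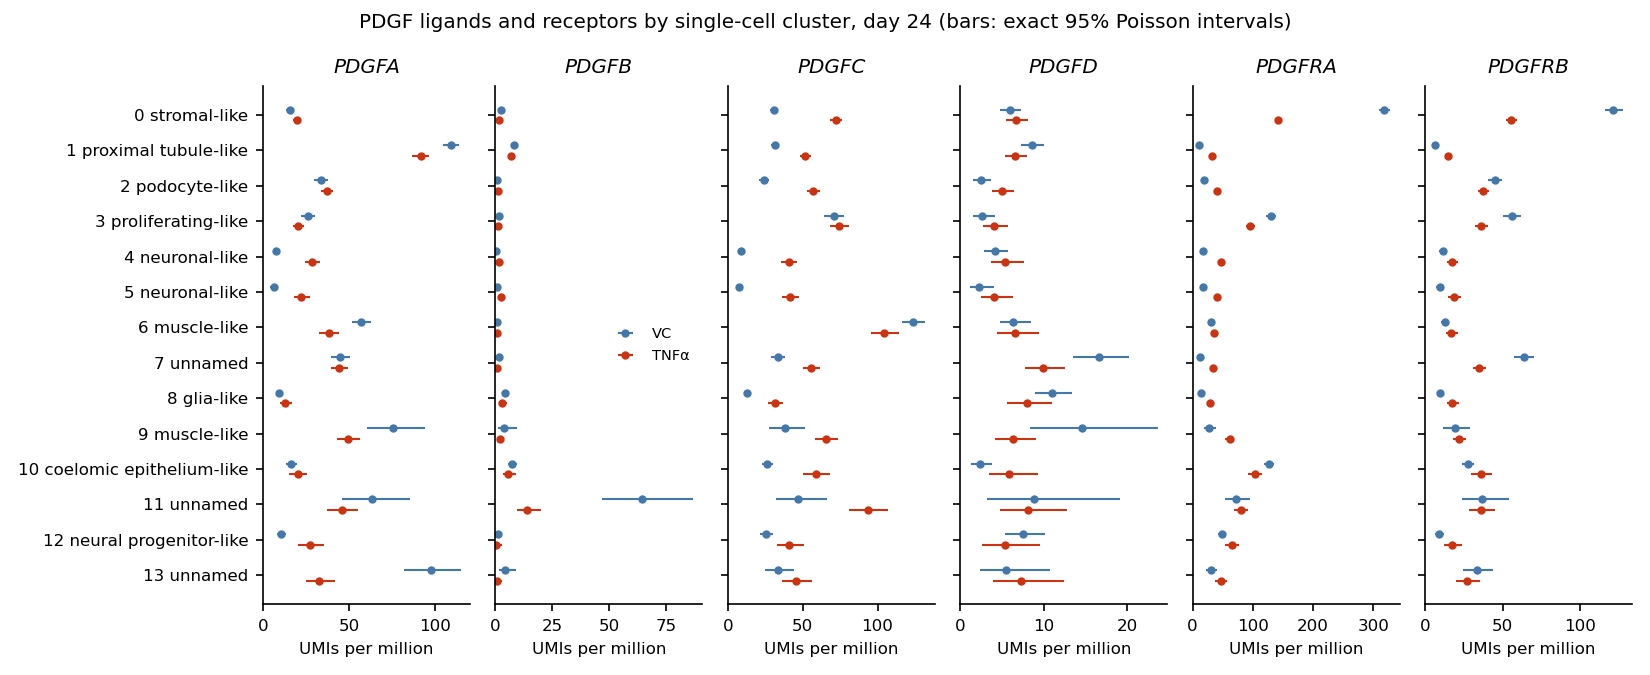
Level of each PDGF gene in CPM, UMIs per 1000000 (x axis, own scale in each panel) in the 14 clusters (y axis), with VC in blue, TNFα in red and bars for exact 95% Poisson intervals. PDGFA peaks in the tubule cluster (109 in VC), PDGFC in muscle-like cluster 6 (124 in VC), and both receptors in stromal-like cells (318 and 121 in VC, 142 and 55.6 in TNFα).

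Cell by cell, 69.4% of VC stromal-like cells had a PDGFRA UMI (median depth 4824 UMIs), against 11.4% of cells of the tubule cluster, a class expected to lack it (median 9130). Thinned to 1500 UMIs per cell, the shares were 37.3% and 2.02%, which places the stromal share far above the tubule one. For PDGFRB the shares were 39.2% and 7.36% unthinned, and 15.3% and 1.52% thinned. Among 2504 VC stromal-like cells of at least 1500 UMIs, 772 had UMIs of both receptors (30.8%), 1019 of PDGFRA only, 241 of PDGFRB only and 472 of neither. After thinning, PDGFRB was seen in 15% of the cells with PDGFRA and 15.5% of the others. Podocyte-like cells of the VC library had the opposite balance, with 202 cells with PDGFRB only and 57 with PDGFRA only, as did cluster 7, with 163 and 18. In the aligned clusters the TNFα library did not keep this balance, with 299 and 354 podocyte-like cells and 162 and 180 cells of cluster 7. Without alignment, TNFα podocyte-like cells held 370 PDGFRB and 107 PDGFRA UMIs, so no loss of the balance is read from these data.

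The TNFα library differed from VC in the receptors of stromal-like cells. PDGFRA was 142 CPM (136 to 148) in TNFα against 318 in VC, a ratio of 0.446 (0.424 to 0.469), and PDGFRB 55.6 (52.0 to 59.4) against 121, a ratio of 0.458 (0.422 to 0.496). Over all cells the difference was far smaller, with 65.4 against 77.0 CPM of PDGFRA, a ratio of 0.850 (0.821 to 0.879), and 30.9 against 36.7 CPM of PDGFRB, a ratio of 0.842 (0.801 to 0.885). Of 12687 genes with at least 100 UMIs in these cells, 1.70% were at least 2-fold lower and 2.81% at least 2-fold higher, and the median ratio was 0.97. The thinned share of stromal-like cells with a PDGFRA UMI was 17.7% in TNFα and that with PDGFRB 7.26%. Both receptors kept about these ratios without alignment (0.486 and 0.509) and in cells taken by marker gates (0.454 and 0.493). Without alignment, stromal-like TNFα cells held 1716 of the 5962 PDGFRA UMIs of that library and 683 of the 2813 PDGFRB UMIs. The unnamed cluster then held 3024 and 1273 of them, and the unaligned ratios leave these out.

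PDGFC was higher in the TNFα library in most aligned clusters, though not in the one where it was highest. In stromal-like cells it was 72.3 CPM (68.2 to 76.6) in TNFα against 30.8 in VC, a ratio of 2.35 (2.1 to 2.62), which was 2.09 without alignment and 1.62 in marker gates. In podocyte-like cells it was 57.1 against 24.0, a ratio of 2.37 (1.47 without alignment), where 6.30% of 11521 genes were at least 2-fold higher and 2.32% at least 2-fold lower. Over all cells PDGFC was 60.2 against 35.2 CPM, a ratio of 1.71 (1.64 to 1.79), where 2.13% of 17397 genes were at least 2-fold higher and 2.17% at least 2-fold lower. In muscle-like cluster 6, its leading cluster, PDGFC was lower, at 105 against 124 CPM, a ratio of 0.844 (0.755 to 0.943), and proliferating-like cells had a ratio of 1.05 (0.932 to 1.19). Neuronal-like clusters showed the largest ratios, 4.76 and 5.55, from 8.55 and 7.49 CPM. Without alignment the neuronal-like clusters had 17.2 CPM in TNFα against 6.89 in VC and 11.9 against 6.25, which are smaller differences. Glia-like cells then had 13.5 against 12.4 CPM and proximal tubule-like cells 35.8 against 31.3, with overlapping intervals in each pair. These unaligned values leave out the unnamed cluster, which held 2981 of the 5488 PDGFC UMIs of the TNFα library.

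Stromal transcripts were higher in several clusters outside the stromal-like cells in the TNFα library. COL1A1, a stromal gene, went up in neuronal-like clusters, from 102 and 145 CPM in VC to 457 and 527 in TNFα, while it was 2236 and 1502 in stromal-like cells. PDGFRA did the same, with 47.5 and 40.5 CPM in neuronal-like clusters against 16.8 and 17.7 in VC, 31.6 against 11.2 in the tubule cluster and 40.4 against 18.8 in podocyte-like cells. PDGFRA UMIs per 1000 stromal marker UMIs ran from 17.5 to 41.7 over the TNFα clusters. In stromal-like cells the value was 26.2 in TNFα and 39.7 in VC, and for PDGFRB it was 10.2 and 15.1. Without alignment the PDGFRA ratio turned to 0.706 in podocyte-like and 0.760 in proximal tubule-like cells, so no rise of PDGFRA outside the stromal-like cells is read from these data. The part of free RNA in the ratios, in stromal-like cells or outside them, was not tested. In stromal-like cells themselves, COL1A1 was also lower with TNFα, at 1502 against 2236 CPM.

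PDGFA changed little over all cells (39.7 against 40.0 CPM, ratio 0.994). It was 91.4 against 109 CPM in the tubule cluster, a ratio of 0.840 (0.784 to 0.900), and 0.915 without alignment, where 1.11% of 13160 genes were at least 2-fold lower and 3.74% at least 2-fold higher. Its stromal-like ratio, 1.28, turned to 0.817 without alignment. PDGFB and PDGFD rested on few UMIs, and over all cells their ratios were 0.785 (0.667 to 0.922) and 0.943 (0.842 to 1.06).

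**Figure D4:**
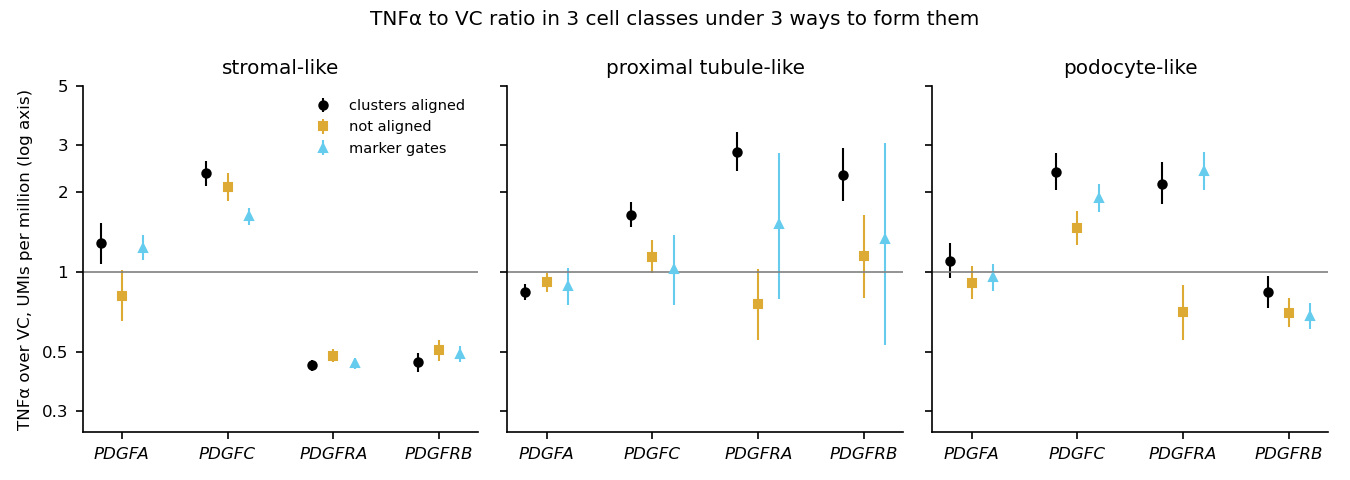
Ratio of TNFα to VC in CPM (y axis, log scale, bars for exact 95% intervals of counting error) for 4 PDGF genes (x axis) in 3 cell classes, formed by aligned clusters, by clusters without alignment or by marker gates. The receptor ratios in stromal-like cells lie between 0.446 and 0.509 under all 3, whereas those of PDGFRA in podocyte-like cells lie at 2.15, 0.706 and 2.40.

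The genes most like each member were named by Pearson's r of log2(CPM + 10) over the 28 cluster and library combinations, among 11885 genes, as a description without a test, since clusters of a library share its depth and free RNA. PDGFRA was most like IGF1 (r = 0.928), LDB2 (0.917) and LRRC17 (0.916), and PDGFRB most like ISLR (0.882), TNS2 (0.856) and IFI16 (0.852). PDGFA was most like TSPAN12 (0.886), FGFR4 (0.878) and ARHGAP24 (0.862), and PDGFB most like AREG (0.931), TNFSF10 (0.902) and CD40 (0.882). PDGFB was highest in the shallow cluster 11 of VC, and TNFSF10 was among the 10 leading genes of that cluster. How far the PDGFB values rest on that cluster was not tested. PDGFC was most like ALDH1B1 (0.854), ELMSAN1 (0.832) and CNKSR3 (0.828). PDGFD, which reached 10 CPM in VC clusters but at most 9.91 CPM in a TNFα cluster and so missed the filter of 10 CPM in each library, was most like ITGA6 (0.763), SNTB1 (0.688) and TGFBR2 (0.671).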

How the data were processed

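Bulk RNA (13 libraries) and single-cell RNA (2 libraries) of UM77-2 kidney organoids were analysed from processed values. The bulk tables are log2 values that the authors made with STAR 2.7.8a, HTSeq 0.11 and voom before they were deposited. They equal log2(CPM + 1) with 0.5 added to each count, since whole reads came back for 100% of values. The single-cell UMI counts are filtered matrices that the authors deposited without normalization. The submitters' notes name Cell Ranger 2.1.1 and the matrix headers 6.0.1. Each library took its group from its own labels, and all columns were mapped.

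Limma 3.58.1 (R 4.3.3, eBayes with a trend) was fitted to all genes of a table, with 1 mean per day in set 2 and with time and treatment in the TNFα set, two-sided, with Benjamini-Hochberg adjustment and a threshold of 0.05. Alternatives were edgeR 4.0.16 and DESeq2 1.42.0 on the recovered reads, no trend, median centring, no added 1, a mean log2 value of at least 1, each library left out and a replicate block. The fits were also run on simulated counts in which 200 genes differed. Limma recovered 200 and called 1 unchanged gene among the 27650 of set 2. In the TNFα set limma recovered 200 and called 6 unchanged genes among the 21093. The size and spread set for these 200 genes are not given here, so nothing about the member calls is read from these counts.

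Barcodes over 500 genes were kept, set to 10000 UMIs each, reduced to 30 components, aligned with a Harmony algorithm and clustered (scanpy 1.11.5, leidenalg 0.10.2, resolution 0.25). Clusters were named from at least 3 raised markers (20 CPM and a log2 fold of 1 over the other cells). Doublets were kept. Shares of cells were also computed after thinning to 1500 UMIs, leaving out shallower cells. Intervals are exact, at 95%, and cover counting error only. Alternatives were a resolution of 0.5, no alignment, marker gates and, chosen after seeing the data, leaving out barcodes with a doublet score over 0.2.

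The genes named are the 6 members, up to 3 called genes per direction of each pathway list by size of change, the 3 genes most like each member by cluster, and the markers that check the labels. The members and lists were chosen with earlier results of these data known.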

Additional observations from a re-analysis of the deposited data

Results flagged for a closer look

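PDGFA moved in opposite directions with TNFα at the 2 times in the bulk spheroids. TNFα minus VC was -0.145 on the log2 scale at 24 h and 0.0505 at 48 h, with 1 library per treatment and time, and the difference between the times was not tested.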

How the results depend on the processing

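Of the changes in single members in bulk RNA, 239 kept their direction and side of the threshold under an alternative, 22 came to pass it, 7 ceased to pass it and 2 changed sign. The 2 were PDGFRB at D29 against D21 (-0.0777) and PDGFC at D25 against D21 (-0.0049), both with median centring. The number of members called at D29 against D21 was 2, and 4 with edgeR, DESeq2 or the filter on low values, and 1 to 3 with 1 library left out. At D25 against D21 it was 1 to 1 with 1 library left out. At D29 against D25 it was 2 with edgeR, DESeq2, median centring, no added 1 or the filter, and 0 to 1 with 1 library left out, against 0. With TNFα it was 3, and 1 with DESeq2 or without the trend. Pathway genes called at D29 against D21 ran from 10 to 23 with 1 library left out. The causes were not tested.

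The labels do not say whether the replicate numbers in set 2 pair libraries across days. Same-numbered libraries deviated together with correlations of 0.143, 0.0753 and 0.270. With the replicate block 3, 1 and 1 members were called at D29 against D21, D25 against D21 and D29 against D25, adding PDGFC (adjusted p = 0.0327) and PDGFRA (0.0443). The counts over all genes became 6056, 2091 and 1118, against 5081, 1486 and 574. No pairing was possible for the TNFα set, with 1 library per treatment and time.

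Over all genes, D29 against D25 gave 574 calls, and 1336 with edgeR, 1278 with DESeq2, 1233 with median centring, 1122 with the filter and 209 without the trend. D25 against D21 gave 1486 (937 higher and 549 lower), and 2252 with median centring (971 and 1281). D29 against D21 gave 5081, and 5552 with edgeR, 4475 with DESeq2 and 5166 of 18572 genes with the filter. TNFα gave 4061, and 2168 with DESeq2. With 1 library left out the counts ran from 2358 to 5417 at D29 against D21, from 241 to 2231 at D25 against D21 and from 0 to 2014 at D29 against D25.

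In single cells, marker gates moved the stromal-like share of UMIs in VC from 12.5% to 29.8% for PDGFC, from 58.9% to 69.5% for PDGFRA (60.8% without barcodes of a doublet score over 0.2) and from 47.2% to 54.3% for PDGFRB. The stromal-like TNFα to VC ratios without alignment were 2.09 for PDGFC (1.62 with gates), 0.486 for PDGFRA and 0.509 for PDGFRB. The share of PDGFA in proximal tubule-like cells was 49.7%, and 4.82% at a resolution of 0.5, 47.1% without alignment and 17.0% with gates, and its ratio was 0.984 at a resolution of 0.5 and 0.915 without alignment. The PDGFRA ratio in podocyte-like cells reversed to 0.706 without alignment. Scrublet with its automatic threshold was not run as an alternative because it marked no barcode. Set 1, the separate TNFα times and both single-cell libraries have 1 library per condition, so their differences carry no replicate error.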
